A study of Rattus norvegicus with 6 samples.

Results

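The cytochrome P450 genes of families 1 to 4, the cytosolic sulfotransferases and the UDP-glucuronosyltransferases were compared between the hippocampus of sevoflurane-anesthetized and control aged rats. The rule for these genes reads the symbol and no measured value, although the families were picked with earlier results of these data known. Every probe set with a single symbol of the forms Cyp1 to Cyp4, Sult, Ugt1 or Ugt2 was taken, and where a gene had several probe sets, the one with the highest mean over the 6 arrays stood for it. This gave 82 of the 22093 genes with a probe set of their own, namely 57 P450 genes, 15 sulfotransferases and 10 UDP-glucuronosyltransferases. All 6 animals were male Sprague-Dawley rats of 18 months. The 3 rats of the sevoflurane group were anesthetized for 4 h with 2.5% sevoflurane carried by 100% oxygen, the 3 control rats were kept in pure oxygen for as long in a chamber of the same kind, and the hippocampus was taken 3 h afterwards. Total RNA of each rat was hybridised to 1 one-colour Clariom D Pico array, on which a probe set measures 1 transcript cluster, and the deposited values are normalized levels on the log2 scale. Because the tissue was taken whole, fewer cells of a type and less RNA per cell cannot be told apart.

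Cytochrome P450 enzymes are heme proteins of the endoplasmic reticulum that insert an oxygen atom into drugs, steroids and fatty acids, drawing electrons from a reductase. Sulfotransferases then move a sulfate group from the donor PAPS, and UDP-glucuronosyltransferases move glucuronic acid from UDP-glucuronic acid, onto hydroxyl groups of the product, which makes it more water soluble. These systems are known best from the liver, but the brain expresses several of them, where they also act on neurosteroids, catecholamines, thyroid hormones and signalling lipids. Sevoflurane itself is such a substrate, since in human liver CYP2E1 oxidises it to hexafluoroisopropanol, which is then glucuronidated.

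All 10 hippocampal neuron markers measured lay above the array's background control probe sets on all 6 arrays. The median level of the 23 background controls was between 3.46 and 3.96. All 11 liver cell markers also lay above this limit on all arrays, so that it is a lenient limit. Sevoflurane replicate 1 had the highest background and the lowest mean correlation with the other arrays (r = 0.986 over probe sets, against 0.991 to 0.993). By limma's two-sided test, no probe set of 68842 and none of the 82 genes had an adjusted p under 0.05 (smallest adjusted p of 0.184 over all and of 0.919 among the 82), so counts below rest on an unadjusted p under 0.05. For a single gene, the exact permutation test of 3 arrays against 3 cannot give a p below 0.1.

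The sulfotransferase genes Sult1a1, Sult1d1 and Sult5a1 were higher after sevoflurane, while none of the 57 P450 genes and none of the 10 UDP-glucuronosyltransferases differed at an unadjusted p under 0.05 by limma. Thus 3 of the 82 genes were called higher, or 3.66%, beside 0.864% of all probe sets and 1.1% of the 22093 genes. None was called lower, beside 0.745% of all probe sets and 0.222% of the genes (in either direction 1.61% and 1.32%). The smallest limma p among the P450 genes was 0.0970, that of Cyp2c11, which lay at or below background on all 6 arrays. Next came Cyp2j4 with a limma p of 0.123. Among the UDP-glucuronosyltransferases the smallest limma p was 0.343, so the calls stood in 1 of the 3 families.

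Sult1a1 encodes the main phenol sulfotransferase, which acts on small phenols, many drugs and their hydroxylated metabolites. Its level was 6.76, 6.81 and 6.92 in the controls and 7.71, 7.59 and 8.05 after sevoflurane (log2). The lowest sevoflurane array lay well above the highest control, and the gap between the groups was wider than the range within either. The mean was 6.83 ± 0.08 in the controls and 7.78 ± 0.24 after sevoflurane (SD, n = 3), a difference of 0.95 with an SE of 0.14 and a 95% interval of 0.63 to 1.27, or 1.94-fold (limma p = 0.000107, adjusted p = 0.919, exact permutation p = 0.1). The difference was between 0.81 and 1.05 in 14 alternative analyses and had an unadjusted p under 0.05 in each. These alternatives reuse the same arrays and are not independent of each other.

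Sult1d1 encodes an enzyme known from the mouse to sulfonate catecholamines such as dopamine. The controls measured 6.98, 6.49 and 6.76 and the sevoflurane arrays 7.05, 7.34 and 7.46 (log2). The groups did not overlap, although sevoflurane replicate 1 came close to control replicate 1. The means were 6.74 ± 0.25 and 7.28 ± 0.21 (SD, n = 3), and the difference was 0.54 with an SE of 0.16 and an interval of 0.17 to 0.91, or 1.46-fold (limma p = 0.00948, exact permutation p = 0.1). It kept an unadjusted p under 0.05 in all 14 alternatives, with differences of 0.41 to 0.66.

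Sult5a1, another cytosolic sulfotransferase, measured 5.58, 5.70 and 5.98 in the controls and 6.08, 6.08 and 6.25 after sevoflurane. Control replicate 3 was high within its group and lay just under the sevoflurane arrays. The means were 5.75 ± 0.21 and 6.14 ± 0.10 (SD, n = 3), and the difference of 0.38 with an SE of 0.13 and an interval of 0.08 to 0.69, or 1.30-fold, was smaller than that of the other two (limma p = 0.0201, exact permutation p = 0.1). It was no longer called without control replicate 1 (difference 0.29), without control replicate 2 (0.35) or without sevoflurane replicate 3 (0.33).

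**Figure D1:**
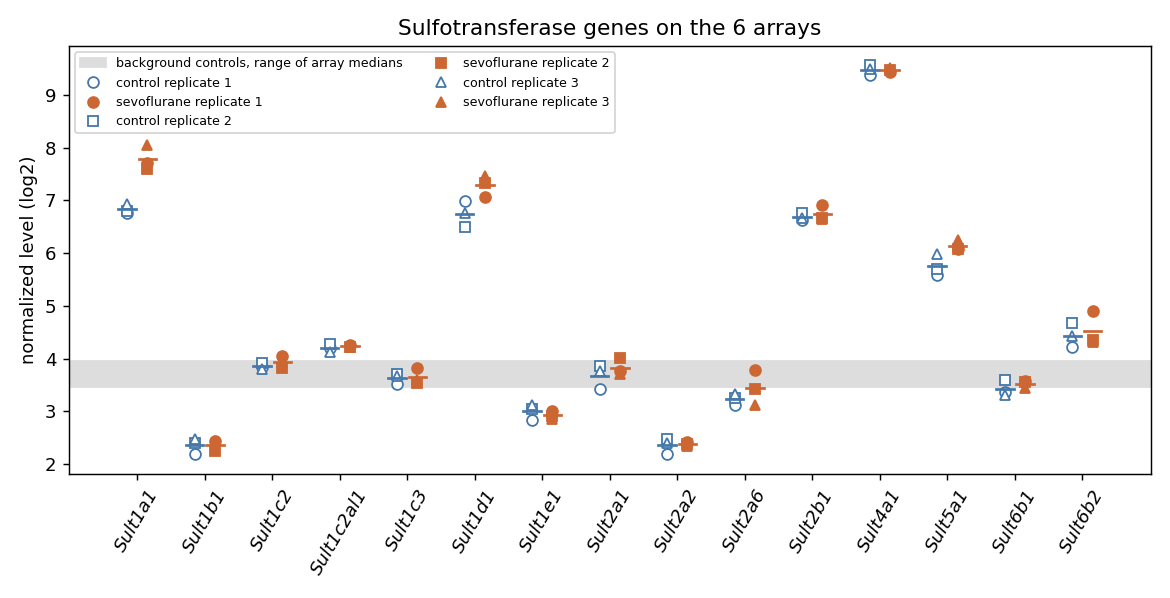
Normalized log2 level (y axis) of the 15 sulfotransferase genes (x axis) on each array, with open blue symbols for the 3 controls, filled orange symbols for the 3 sevoflurane arrays, short lines for group means and a grey band for the range of the background medians (3.46 to 3.96). Sult1a1, Sult1d1 and Sult5a1 show no overlap between the groups, Sult4a1 is level near 9.5, and several of the other genes lie in or under the band.

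The promoter windows of the 3 genes are printed because they were the ones called. Each runs from 250 bases before to 50 bases after a start that RefSeq gives for the gene (assembly GRCr8), 5′ to 3′ on the gene's strand. For Sult1a1 this start is the edge of the gene model, while the models of Sult1d1 and Sult5a1 begin 649 and 2770 bases further upstream, so that their windows belong to 1 of several possible starts. The window of Sult1a1 is chr1:190706063-190706362 on the minus strand, that of Sult1d1 is chr14:20720829-20721128 on the plus strand and that of Sult5a1 is chr19:68112607-68112906 on the minus strand. Capitals mark AGAACA, the half-site of the glucocorticoid receptor, which was searched on both strands.
Sult1a1: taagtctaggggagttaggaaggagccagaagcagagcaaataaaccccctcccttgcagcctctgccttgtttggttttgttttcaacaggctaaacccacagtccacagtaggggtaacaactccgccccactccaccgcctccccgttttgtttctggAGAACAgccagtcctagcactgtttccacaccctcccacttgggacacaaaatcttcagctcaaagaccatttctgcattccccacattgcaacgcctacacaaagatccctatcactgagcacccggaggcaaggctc
Sult1d1: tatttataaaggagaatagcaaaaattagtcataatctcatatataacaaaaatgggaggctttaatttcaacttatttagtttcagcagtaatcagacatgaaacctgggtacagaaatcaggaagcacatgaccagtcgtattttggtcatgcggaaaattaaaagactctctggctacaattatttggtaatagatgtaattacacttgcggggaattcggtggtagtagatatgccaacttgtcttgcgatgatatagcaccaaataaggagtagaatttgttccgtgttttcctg
Sult5a1: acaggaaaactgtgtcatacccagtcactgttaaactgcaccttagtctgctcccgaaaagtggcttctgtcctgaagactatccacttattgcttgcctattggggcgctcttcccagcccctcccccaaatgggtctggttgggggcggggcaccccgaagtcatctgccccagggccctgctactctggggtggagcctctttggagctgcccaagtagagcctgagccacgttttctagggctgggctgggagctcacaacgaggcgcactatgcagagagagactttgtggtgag
The half-site occurred in Sult1a1 alone of the 3, on the gene's strand, starting 89 bases before the start used. Over the 72 of 82 genes with a window, 31.9% held it on either strand, beside 20.1% of all 27457 windows. The core of the aryl hydrocarbon receptor site, GCGTG on either strand, occurred in none of the 3 windows, in 22.2% of the 72 and in 31.1% of all. The 2 motifs can share bases at their ends, and a match is a description of sequence only.

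The 3 called genes lie on 3 different chromosomes, and their neighbours in the RefSeq gene order were not called. Sult1d1 stands between Sult1e1, which encodes the estrogen sulfotransferase, and Sult1b1, whose product sulfonates thyroid hormones, and both neighbours were at or below background on all 6 arrays. The nearest genes of Sult1a1, Slx1b and Dppa3l3, differed by 0.09 and 0.22 (log2). Those of Sult5a1, Cpne7 and Dpep1, differed by 0.14 and 0.04, and none of these neighbours had an unadjusted limma p under 0.05.

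Among the other sulfotransferases, Sult4a1, a brain enzyme with no settled substrate, measured 9.38, 9.56 and 9.49 in the controls and 9.44, 9.48 and 9.52 after sevoflurane. The groups were interleaved, with a difference of 0.00 and an interval of -0.24 to 0.24 (exact permutation p = 1). Sult2b1, which sulfonates cholesterol and hydroxysteroids, measured 6.62, 6.76 and 6.67 against 6.91, 6.67 and 6.65, with only sevoflurane replicate 1 above the controls. Sult1c2, Sult1c2al1 and Sult6b2 also lay above background on all arrays, with differences of 0.03 to 0.09. In all, 8 of the 15 sulfotransferases were above background on every array, and Sult1b1, Sult1e1, Sult2a2, Sult2a6 and Sult6b1 were on none. Of those 8, the 5 that were not called had 95% intervals within a 1.5-fold change in either direction.

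Of the 10 UDP-glucuronosyltransferases, 5 lay above background on all 6 arrays and Ugt2b, Ugt2b15 and Ugt2b35 on none. Ugt1a6, which glucuronidates small phenols, measured 4.83, 5.08 and 4.87 in the controls and 5.20, 4.99 and 4.57 after sevoflurane. The sevoflurane arrays held both the highest and the lowest value, and the difference was -0.01 with an interval of -0.39 to 0.38 (exact permutation p = 1). Ugt2a1, known for odorant conjugation in the olfactory epithelium, was above background on 1 array. Over the 7 genes above background on any array the differences ran from -0.01 to 0.18, and for 4 of the 5 genes above background the interval stayed within 1.5-fold, the exception being Ugt2b7. A probe set that names 8 Ugt1 genes at once, and so stands for none of them, measured 5.62, 5.67 and 5.66 against 5.76, 5.74 and 5.78. Of the 6 probe sets that name several genes of these families, only this one had no overlap between the groups. Its difference was 0.11 with an interval of -0.11 to 0.33. The test that the study's methods name gave a p of 0.00551, limma a p of 0.293 and the exact permutation test a p of 0.1.

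**Figure D2:**
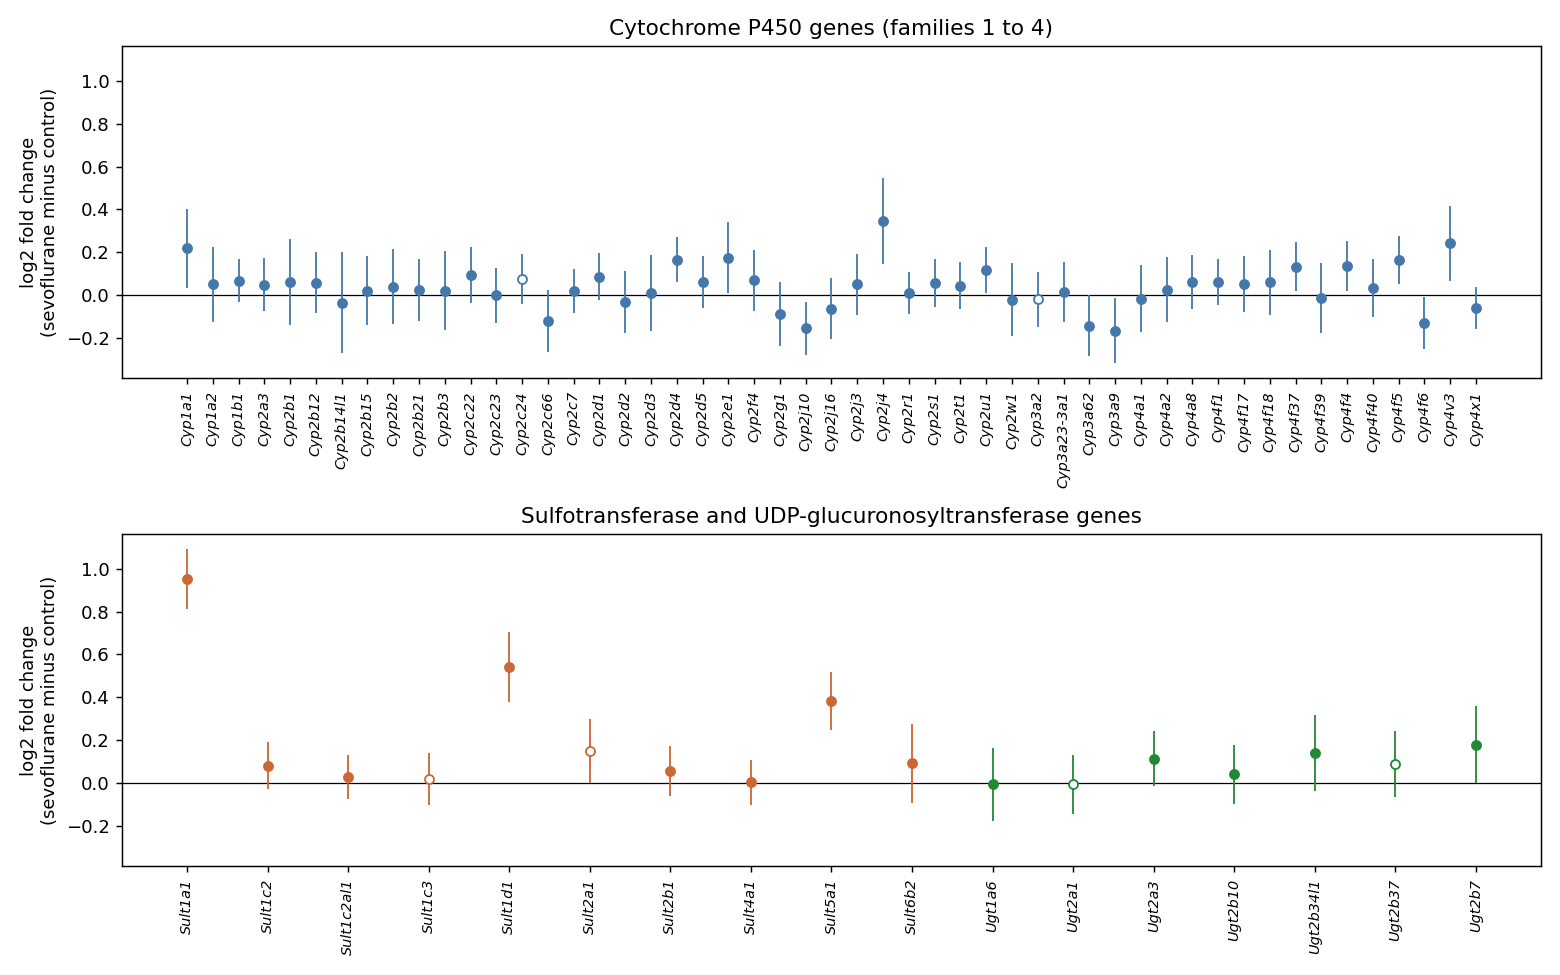
Log2 fold change, sevoflurane minus control (y axis), of the 68 genes above background on at least 1 array, with bars of 1 SE from limma. Filled points were above background on all 6 arrays and open points on fewer, blue marks P450 genes, orange sulfotransferases and green UDP-glucuronosyltransferases. Sult1a1 at 0.95, Sult1d1 at 0.54 and Sult5a1 at 0.38 stand highest, and the P450 genes run from -0.17 to 0.34.

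Most P450 genes lay above the background limit, which is lenient, and none was called by limma. Some lay only just above it, such as Cyp2c22 by 0.23 and Cyp2c7 by 0.26 (log2, mean over the arrays). Of 57, 49 lay above background on all arrays, the exceptions being Cyp2c24, Cyp3a2, Cyp3a18 and 5 other Cyp2c genes, and for 46 of the 49 the interval stayed within 1.5-fold. The exceptions were Cyp1a1, Cyp2j4 and Cyp4v3, each of which had 1 array far from the rest.

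In family 1, Cyp1a1, the classical target of the aryl hydrocarbon receptor, measured 3.73, 3.94 and 3.90 in the controls and 4.50, 3.91 and 3.81 after sevoflurane. Its difference of 0.22 (exact permutation p = 0.5) came from sevoflurane replicate 1 and was 0.00 without it. Cyp1b1, which hydroxylates estradiol and is found in vascular cells, measured 6.09, 6.11 and 6.19 against 6.21, 6.18 and 6.21, a difference of 0.07 with overlap between the groups. Cyp1a2, a relative of Cyp1a1, differed by 0.05.

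In family 2, Cyp2e1, the rat counterpart of the enzyme that oxidises sevoflurane in human liver, measured 4.66, 4.79 and 4.85 in the controls and 5.28, 4.91 and 4.64 after sevoflurane. The sevoflurane values spanned those of the controls, and the difference of 0.17 (exact permutation p = 0.5) was 0.01 without sevoflurane replicate 1. Cyp2d4, the rat CYP2D enzyme best known from the brain, measured 7.05, 7.12 and 7.13 against 7.35, 7.24 and 7.20. These groups did not overlap, and the difference of 0.17 was called by the test that the study's methods name (p = 0.0313) and not by limma (p = 0.146), with an exact permutation p of 0.1. Cyp2j4, whose subfamily epoxidises arachidonic acid, measured 5.36, 5.12 and 5.19 against 5.40, 6.05 and 5.26. Sevoflurane replicate 2 alone stood out, and the difference of 0.34 with an interval of -0.11 to 0.80 (exact permutation p = 0.2) was 0.10 without it. Cyp2u1, a fatty acid hydroxylase of brain and thymus, differed by 0.12, Cyp2s1 by 0.06 and Cyp2b1 by 0.06. The identifier of the Cyp2b1 probe set carries chromosome 7, whereas RefSeq places the gene on chromosome 1. Among the lower ones, Cyp2j10 measured 6.65, 6.36 and 6.46 against 6.27, 6.47 and 6.27, a difference of -0.16 with overlap. Cyp2c66 measured 4.17, 4.15 and 4.12 against 4.33, 3.89 and 3.85. Its sevoflurane replicate 1 lay above all controls and the other two below them, so the difference of -0.12 became -0.28 without that array.

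In family 3, whose members clear many drugs and steroids in the liver, Cyp3a9 measured 5.86, 5.79 and 6.13 in the controls and 5.50, 5.83 and 5.96 after sevoflurane. Its difference of -0.17 (exact permutation p = 0.5) was the lowest of the 68 genes above background on any array. It was -0.04 without sevoflurane replicate 1, -0.06 without control replicate 3 and -0.06 as the mean of its probe sets. Cyp3a62 differed by -0.14 (-0.03 without sevoflurane replicate 1), and both genes overlapped between the groups.

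In family 4, fatty acid hydroxylases whose Cyp4f subfamily also inactivates leukotrienes, all 14 genes were above background on every array. Cyp4x1, a P450 with high expression in brain, measured 7.29, 7.28 and 7.26 in the controls and 7.22, 7.21 and 7.23 after sevoflurane. It was the only one of the 82 whose 3 sevoflurane arrays all lay below the controls, yet by 0.06 on the log2 scale, with SDs of 0.014 and 0.0085. The test that the study's methods name, which uses these small SDs alone, gave a p of 0.00319, limma, which also draws on the spread of all probe sets, gave a p of 0.554, and the exact permutation test gave a p of 0.1. Cyp4f5 measured 6.55, 6.54 and 6.56 against 6.85, 6.60 and 6.69, and Cyp4f37 measured 6.38, 6.40 and 6.37 against 6.69, 6.43 and 6.42. Neither overlapped, sevoflurane replicate 1 being the highest in both, and the differences were 0.16 and 0.13, or 0.09 and 0.04 without that array. A further probe set that names both genes did overlap between the groups, with a difference of 0.08. Cyp4f4, of the same leukotriene B4 hydroxylase subfamily, differed by 0.14. Cyp4f6 differed by -0.13 on the probe set taken and by 0.03 and 0.07 on its 2 others. Cyp4v3, the counterpart of a human fatty acid hydroxylase, measured 7.04, 6.75 and 7.01 against 6.99, 6.98 and 7.55, and its difference of 0.24 (exact permutation p = 0.6) was 0.05 without sevoflurane replicate 3. Genes within the Cyp2b, Cyp2c, Cyp2d and Cyp4f subfamilies are alike in sequence, and whether their probe sets tell them apart was not tested.

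Counted by overlap alone, 7 of the 82 genes had all sevoflurane arrays above all controls (8.54%, beside 3.12% of all probe sets and 4.93% of the 22093 genes) and 1 had them below (1.22%, beside 2.35% and 1.34%). Together these were 9.76%, beside 5.47% and 6.27%. Besides the 3 sulfotransferases, they were Cyp2d4, Cyp4f5, Cyp4f37 and Cyp2c11 higher and Cyp4x1 lower, of which Cyp2c11 was at or below background on all arrays.

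Sevoflurane replicate 1 was the highest array for most P450 genes and UDP-glucuronosyltransferases and for fewer of the sulfotransferases. It was the highest of the 6 arrays for 58 of the 82 genes, or 70.7%, beside 46.6% of all probe sets. By family it was highest for 44 of 57 P450 genes, including all 7 Cyp2b genes, for 9 of 10 UDP-glucuronosyltransferases and for 5 of 15 sulfotransferases. The median of the 82 genes lay 0.26 above the control mean on this array and 0.03 and 0.04 below it on the other two sevoflurane arrays. That of all probe sets lay 0.12 above on this array and 0.03 and 0.05 below on the others. Accordingly 63 of the 82 fold changes were above 0, or 76.8% beside 53.5% of all probe sets and 62.5% of the 22093 genes, and without this array 32 of 82 were, or 39.0% beside 37.5% and 49.3%. The median fold change moved from 0.05 to -0.03 on the log2 scale, that of all probe sets from 0.01 to -0.04 and that of the 22093 genes from 0.02 to 0.00. Sult1a1, Sult1d1 and Sult5a1 stayed called without it, with differences of 0.99, 0.66 and 0.41, and 2 genes, Cyp2c66 and Cyp4f6, were then called lower (2.44%, beside 4.08% of all probe sets and 1.84% of the 22093 genes).

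**Figure D3:**
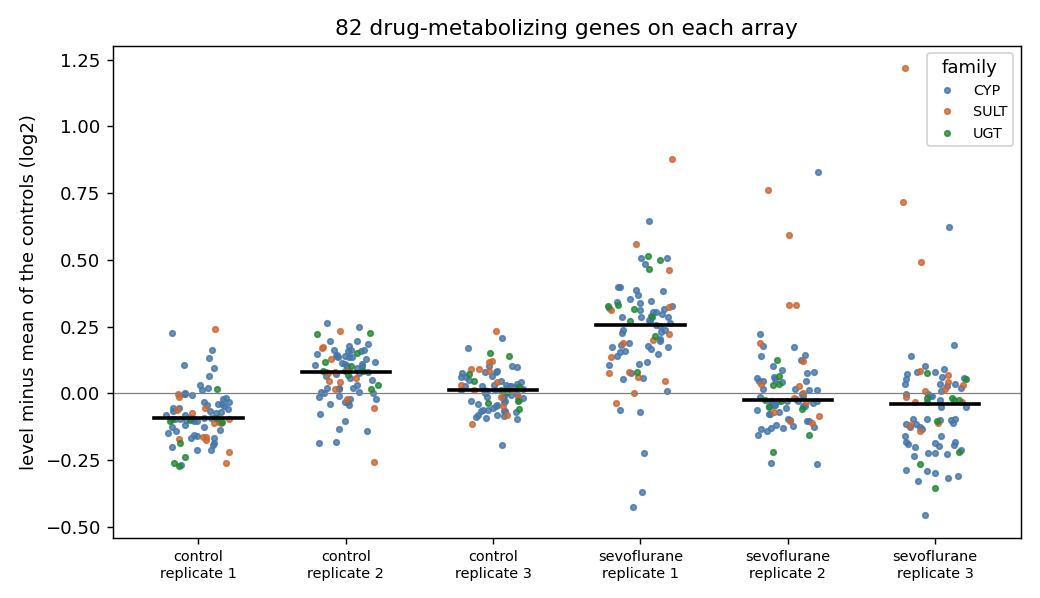
Level of each of the 82 genes minus its mean over the controls (y axis, log2) on each of the 6 arrays (x axis), with a black line for the median and colours for the families. The median lies at 0.26 on sevoflurane replicate 1, where that of all probe sets (not drawn) was 0.12. It lies close to 0 on the other sevoflurane arrays, where the highest point is Cyp2j4 on replicate 2 and Sult1a1 on replicate 3.

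**Figure D4:**
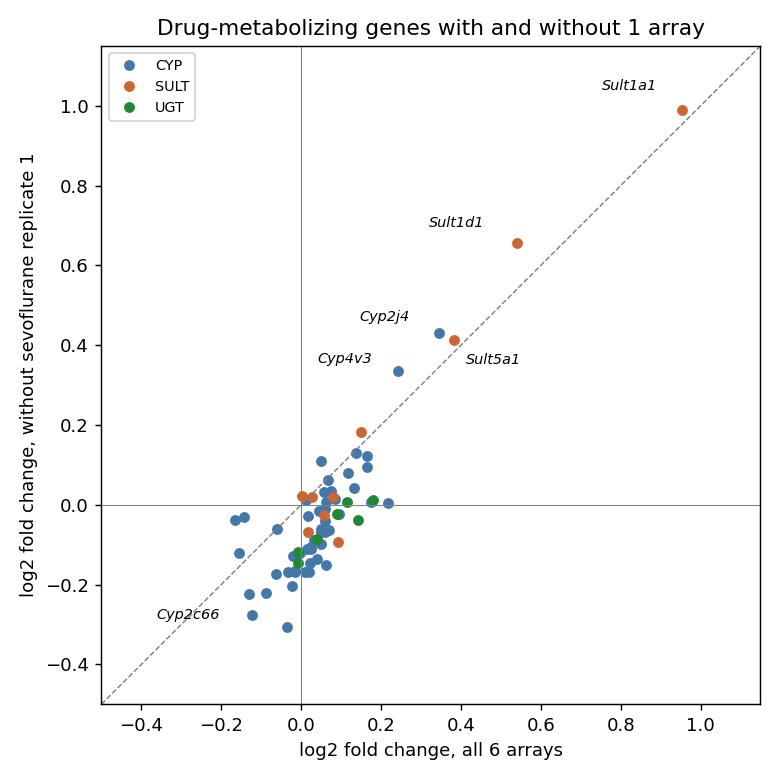
Log2 fold change over all 6 arrays (x axis) against that without sevoflurane replicate 1 (y axis) for the 68 genes above background on at least 1 array, with the line of equal values dashed. Most P450 genes (blue) lie under the line, while Sult1a1, Sult1d1 and Sult5a1 lie on or above it.

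Markers of other tissue and cell types were read on the same arrays. Of all probe sets, 0.864% were called higher and 0.745% lower by limma (unadjusted p under 0.05). Of the 22093 genes, 1.1% were called higher and 0.222% lower. Of the 12 thalamus and habenula markers, 7 were higher and none lower, and their summed level (log2) was 10.31 to 10.42 in the controls and 10.95, 11.45 and 10.68 on the 3 sevoflurane arrays. Of 11 astrocyte markers, 2 were higher, with sums of 12.90 to 13.03 in the controls and 13.06 to 13.14 after sevoflurane. Of 9 microglia markers 1 was higher, and the sum was 11.73 on sevoflurane replicate 3 and between 10.89 and 10.97 on the other arrays. Of 14 endothelial markers 2 were higher and 2 lower, with overlapping sums, and of 12 fibroblast and meninges markers 1 was higher (sums of 10.24 to 10.32 in the controls and 10.32 to 10.48 after sevoflurane). Sult1a1, Sult1d1 and Sult5a1 were each highest on sevoflurane replicate 3, as were the astrocyte, microglia, endothelial and mural sums. Of the pathway gene lists described below, the redox partner, donor supply, oxidizing, other conjugating and transporter sums were also highest there. The regulator, other P450 and deconjugating sums were not. Sevoflurane replicate 3 was the highest array for 14.3% of all probe sets. The choroid plexus, ependymal and liver cell sums were lowest on that array, and the thalamus and habenula sum was highest on sevoflurane replicate 2. Of 8 oligodendrocyte markers 1 was higher and 1 lower, of 12 choroid plexus markers 1 was higher, and 0 hippocampal neuron, interneuron, mural, ependymal and liver cell markers were called by limma at an unadjusted p under 0.05. The part of these cell types in the sulfotransferase values was not tested.

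The other genes of the pathway were read from 8 lists, of which 127 of 139 genes were measured. Of these, 3 were called higher and 0 lower by limma (unadjusted p under 0.05), and the median difference was 0.04, so 2.36% were called, beside 1.1% of the 22093 genes called higher. Among the 8 genes that supply the sulfate and glucuronic acid donors, none was called. Papss2, which makes the sulfate donor PAPS, measured 7.37, 6.99 and 7.23 in the controls and 7.32, 7.38 and 7.41 after sevoflurane, a difference of 0.17 with overlap. None of the 16 redox partners and heme genes was called, with a median of 0.07.

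Of 19 regulators of drug-metabolizing genes none was called by limma. Ppara, a receptor for fatty acids that controls Cyp4a genes, measured 6.38, 6.27 and 6.25 in the controls and 6.48, 6.41 and 6.42 after sevoflurane. Its groups did not overlap, and the difference of 0.14 had a p of 0.0382 by the test that the study's methods name, a p of 0.206 by limma and an exact permutation p of 0.1. Rxra, the shared partner of the nuclear receptors, differed by 0.24 with overlap. Nr3c1, the glucocorticoid receptor, measured 8.63, 8.66 and 8.68 against 8.33, 8.57 and 8.53, lower without overlap by 0.17 on the log2 scale (limma p = 0.151, exact permutation p = 0.1). Of 5 deconjugating enzymes, which remove sulfate or glucuronic acid again, none was called, with a median of 0.12. Of these, 2 (Arsa and Gusb) had all sevoflurane arrays above all controls, as had 6 of 24 other oxidizing and hydrolyzing enzymes. None in these lists had them all below. In the other lists 0 to 2 genes lay above and 0 or 1 below. Of the 22093 genes, 4.93% lay above and 1.34% below.

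The 3 companion genes called were Tbxas1, Aox1 and Mgst2. Tbxas1, the P450 that makes thromboxane, measured 5.55, 5.55 and 5.65 in the controls and 5.98, 5.70 and 6.34 after sevoflurane, a difference of 0.42 (limma p = 0.0308, exact permutation p = 0.1). Aox1, an aldehyde oxidase, measured 6.10, 6.05 and 6.50 against 6.55, 6.60 and 6.67, a difference of 0.39 (limma p = 0.0226, exact permutation p = 0.1). Mgst2, a microsomal glutathione transferase, measured 4.996, 5.48 and 5.31 against 5.82, 5.49 and 5.60, a difference of 0.37 (limma p = 0.0399, exact permutation p = 0.1). Each of the 3 lost its call in 4 of the 6 analyses that left out 1 array. For Tbxas1 these were without sevoflurane replicate 3 (0.25) or without any 1 of the controls, for Aox1 without sevoflurane replicates 2 or 3 or control replicates 1 or 2, and for Mgst2 without sevoflurane replicates 1 or 3 or control replicates 1 or 3. The test that the study's methods name called none of the 3 and called Aldh2, Fmo4 and Ppara higher and Slc22a8 lower. It called 2.52% of all probe sets. Without control replicate 1 none of the 127 was called by limma, and without control replicate 2 only 1 was. Without sevoflurane replicate 1 there were 10. Beside these counts, 0.906%, 1.70% and 6.01% of all probe sets were called in the same 3 settings. Of the genes next in p, Fmo2, a flavin monooxygenase, differed by 0.40 (0.18 without sevoflurane replicate 3), Mgst1, a relative of Mgst2, by 0.37 and Slc22a8, an organic anion transporter that carries conjugates, by -0.23, with no overlap in Fmo2 and Slc22a8. Abcb1a, the drug efflux pump of brain capillaries, differed by -0.24, and none of the 14 transporters was called by limma on all arrays. Slc22a8 was called lower by the test that the study's methods name, with quantile normalization, with array weights and without sevoflurane replicate 1.

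**Figure D5:**
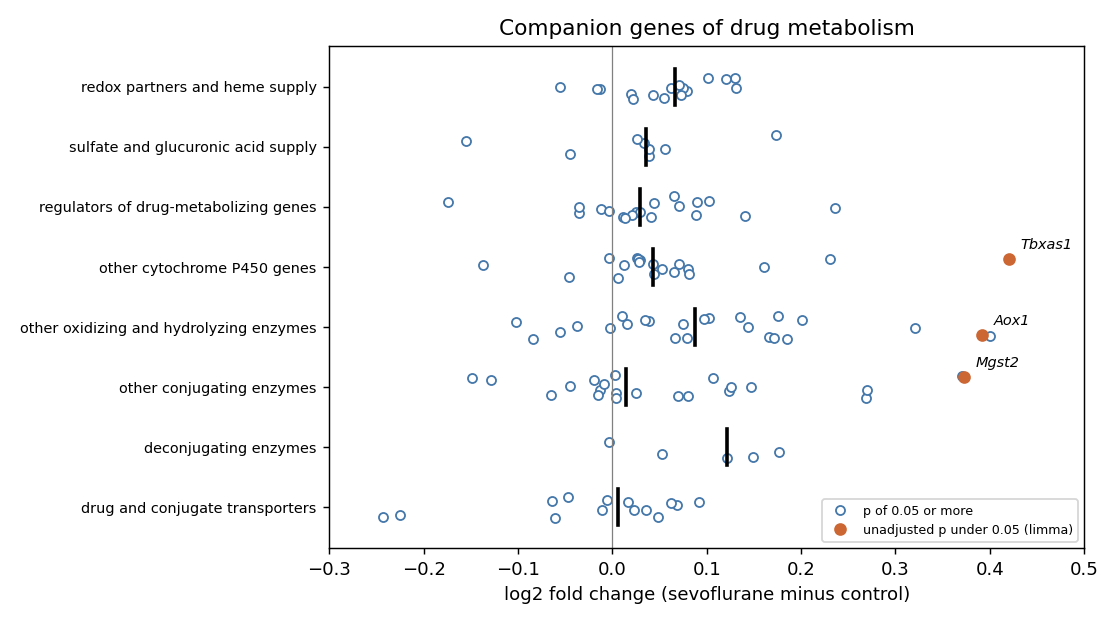
Log2 fold change, sevoflurane minus control (x axis), of the 127 companion genes in 8 lists (y axis), with black lines for list medians and filled orange points for an unadjusted limma p under 0.05. Only Tbxas1, Aox1 and Mgst2 are filled, and list medians lie between 0.01 and 0.12.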

How the data were processed

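The 6 arrays, 1 per rat, were grouped by the labels as 3 sevoflurane and 3 control. The values that the authors deposited are on the log2 scale and were already normalized. RMA, MAS5 and Affymetrix Expression Console 1.4.1 stand in the processing notes of the submitters, but which of them gave the values is not known. Where arrays are normalized to each other, a change common to most genes would be lost. The genome build of the array is not given in the sources used here.

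The 1738 control probe sets of 70580 were left out and 68842 were tested without a filter on level. Of these, 23446 name 1 gene, 505 several and 44891 none. The 82 genes come from 90 probe sets, and 7 of the genes had more than 1. RefSeq matched 74 of them by gene ID and 7 by symbol, while 1 (Cyp2c80) was not matched. The genes and all lists were chosen with earlier results of these data known. A gene counted as above background on an array where it exceeded the median of that array's 23 background controls. No fold change is given for genes at or below it on all 6 arrays.

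Groups were compared with limma 3.58.1 (lmFit, eBayes, two-sided) in R 4.3.3, which was tested on simulated data, and p was adjusted by Benjamini-Hochberg over all probe sets. Named were the genes with an unadjusted p under 0.05, those without overlap and with a mean above background, the 5 largest differences in each direction, a list chosen by role, and in each companion list the genes called and some of those with the smallest p. With 3 arrays a group, precision is limited by their number. Alternatives were the methods' one-way ANOVA, a trended and robust prior, array weights, quantile normalization, centring, a filter on dim probe sets, the mean of probe sets per gene, the replicate number as a block, and each array left out in turn. Tables and figures were made with pandas 2.3.3 and matplotlib 3.10.9.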

Additional observations from a re-analysis of the deposited data

How the results depend on the processing

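Sult1a1 and Sult1d1 kept their direction and an unadjusted p under 0.05 in all 14 alternatives, and Sult5a1 in 11. The alternatives reuse the same arrays. Each of these 3 genes has 1 probe set, so the mean of probe sets per gene could not change its values. The count of the 82 genes called was 3 in the reported analysis. It was 5 by the methods' one-way ANOVA (4 higher, 1 lower), which added Cyp2d4 and Cyp4x1, and 8 with array weights (5 higher, 3 lower). It ran from 2 to 5 when 1 array was left out, and was 5 without sevoflurane replicate 1 (3 higher, 2 lower). Beside these counts, 2.52% of all probe sets were called by the ANOVA, 13.9% with array weights and 6.01% without sevoflurane replicate 1, so that 8 of 82 with array weights was a smaller share than that of all probe sets. The count of companion genes called was 3, and was 4 by the one-way ANOVA, none of them Tbxas1, Aox1 or Mgst2, 5 with a trended and robust prior, 9 with array weights and 6 with quantile normalization. It ran from 0 to 10 when 1 array was left out, with 0 without control replicate 1, 1 without control replicate 2 and 10 without sevoflurane replicate 1. Of all probe sets, 1.63% were called with a trended and robust prior and 3.0% with quantile normalization. Without control replicate 1 it was 0.906% and without control replicate 2 it was 1.70%. The cause of the changes in these counts was not tested. The median fold change of the 82 genes, 0.05 on the log2 scale, ran from -0.03 to 0.12 when 1 array was left out. Cyp2j4 was called with array weights (0.66) and without sevoflurane replicate 3 (0.50).

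The deviations from the group means had correlations of -0.585, -0.288 and 0.0263 between arrays of the same replicate number. The labels do not say whether the numbers pair the arrays, and with 3 arrays a group these correlations cannot decide it. With the number as a replicate block, 3 of the 82 genes and 2 of the companion genes were called, and 490 probe sets in all against 1108. Over all probe sets, 4138 were called without sevoflurane replicate 1 and 9566 with array weights, of which 32.0% were higher, against 53.7% in the reported analysis. With 3 arrays a group, the smallest SE among the genes above background was 0.0974 and the largest 0.236 (log2), which limits what could be called.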
